A study of Mus musculus with 4 samples.

Results

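Within a study of white adipose tissue on high fat diet, 94 genes were at least 2-fold higher on the F0 high fat array than on the chow array but lay under 1.5-fold of chow on the F2 high fat array. They were taken from 19057 genes on the array, of which 9782 had a chow value of at least 16 and could have qualified. Values are the authors' background-subtracted probe intensities on a linear scale, each gene stood for by the brightest of its probes, and a member also had to be detected on the F0 array (detection p under 0.01). The thresholds were met by 96 genes, and 2 of them, Btc and Peg3, were left out by name. The members were thus chosen by their intensities on the F0, F2 and chow arrays, and the F0 and F2 values below describe that choice. The F1 array entered only through the mean of 4 arrays that picked each gene's probe, and with the probe picked without F1 the same 94 genes met the limits, by the same probes.

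The 4 groups were female C57BL/6 mice, an inbred strain, aged 9 months, and the labels also put the time on the diet at 9 months. Mice of 3 generations, F0, F1 and F2, were on a diet with 60% of calories as fat, and the controls were on normal chow. Each group was 1 array hybridised with mixed RNA, of 4 samples for each high fat generation and of 3 samples for chow, and nothing in the labels ties the mixed samples to separate animals. With 1 array per group no difference has a replicate check and no test can be made, so differences are given by size, and the number of arrays limits their precision. The labels name neither the fat depot nor the diet of the parents beyond the generation.

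White adipocytes store triglyceride in a droplet that fills the cell, and a basement membrane of type IV collagen, laminin, nidogen and perlecan wraps each of them. Their surface is densely covered with caveolae, membrane pits that carry fatty acid transporters and insulin receptors. As the cells enlarge on a rich diet they renew matrix and membrane, while macrophages and other leukocytes collect between them. RNA of a whole fat pad mixes all of these cells, and in such samples fewer cells of a type and less RNA per cell cannot be told apart.

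The sequences just upstream of 3 members are shown because they hold the regulatory sequence nearest to the strongest F0 excess. Each is the 250 bases before the annotated gene start in RefSeq (GRCm38.p6), read 5′ to 3′ on the gene's strand, for the 3 members with the largest F0 over chow among those with an entry in the table that also met the limits after nec correction and quantile normalization, another way of processing the same arrays. Capitals mark motifs found on either strand. The motifs searched were the GC box of Sp1 with the letters GGGCGG, the hypoxia response core with the letters GCGTG, the AP-1 motif with the letters TGACTCA and the E-box with the letters CACGTG. The C/EBP palindrome was searched as TTGCNNAA, the start-site motifs as TATAAA or as CCAAT, and the DR1 nuclear receptor repeat by its own consensus. GC boxes may overlap each other.
Amhr2, chr15:102445117-102445366, forward strand: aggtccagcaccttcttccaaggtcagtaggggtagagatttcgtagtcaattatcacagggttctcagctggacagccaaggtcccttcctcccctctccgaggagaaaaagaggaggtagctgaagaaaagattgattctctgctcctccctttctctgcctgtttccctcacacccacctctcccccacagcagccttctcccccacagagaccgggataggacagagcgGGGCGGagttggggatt
Sucnr1, chr3:60081619-60081868, forward strand: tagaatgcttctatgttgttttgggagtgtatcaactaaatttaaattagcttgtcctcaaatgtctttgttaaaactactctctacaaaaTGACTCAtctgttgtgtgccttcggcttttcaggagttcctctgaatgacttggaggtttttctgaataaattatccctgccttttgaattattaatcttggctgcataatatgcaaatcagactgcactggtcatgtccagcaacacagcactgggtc
Grtp1, chr8:13200625-13200874, reverse strand: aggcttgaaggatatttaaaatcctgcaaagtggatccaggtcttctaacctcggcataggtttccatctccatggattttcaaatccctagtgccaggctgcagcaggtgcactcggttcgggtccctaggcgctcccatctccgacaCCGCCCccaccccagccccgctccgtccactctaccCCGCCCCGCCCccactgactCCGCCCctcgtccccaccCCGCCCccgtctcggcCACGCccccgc

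The Amhr2 window held 1 GC box, 17 bases before the start, the Sucnr1 window 1 AP-1 motif at 159 bases, and the Grtp1 window 5 GC boxes and 1 hypoxia core. No motif was common to all 3. Promoters were found for 74 members, and GC boxes lay in 50 of them (67.6%), against 59.9% of 7833 other genes with a chow value of at least 16 and 32.9% of all 27025 promoters. The hypoxia core was present in 48.6% of member windows, against 45.4% of the other measured genes, and CCAAT in 35.1%, against 36.3%. The E-box and the C/EBP motif each stood in 5.41% of member windows, against 8.58% and 7.25% of the other measured genes. TATAAA was found in 8.11%, against 6.79%, AP-1 in 1.35%, against 2.94%, and the DR1 repeat in 0 of 74 member windows, against 0.0255%. Member windows had a median GC content of 60.6%, against 59.6% in the other measured genes. The ratio of CpG pairs observed to those expected from base content was lower in members, with a median of 0.647 against 0.726. It was 0.6 or more in 56.8% of member windows, against 66.9% of the other measured genes. A match or its absence in this window is a description and says nothing about the factors named.

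By construction all 94 members were higher on F0 than on chow, where 6.14% of the 9782 genes were 2-fold higher or more. Their median F0 over chow was 2.24-fold, with 66 members under 2.5-fold and 12 at 3-fold or more. On the F2 array their median was 1.24-fold of chow, with a range from 0.604-fold (with values under 16 counted as 16) up to the limit itself. F2 lay under 1.5-fold of chow for 85.3% of all genes. The name near chow held for 87 of the 94, which were within 1.5-fold of chow in either direction by their unfloored values, and the other 7 were lower than that. Of these 7, Slc27a1, Ric3 and Myom3 had F2 values above 16, while Syt12, 2600006K01Rik, Hbegf and Gstm7 read under 16 on F2, where the size of a difference is uncertain. In all 19 members were below chow on F2, as were 63.3% of all genes. For the whole array, 8.27% of genes were 2-fold or more above chow on F2 and 12.6% were as far below it. All genes together lay slightly under chow on this scale, by a median of -0.17 on the log2 scale on F0, -0.17 on F1 and -0.20 on F2. The members' F2 median of 0.31 on the log2 scale lay above that of all genes, but the same chow value helped choose the members. This difference therefore follows in part from the choice.

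**Figure D1:**
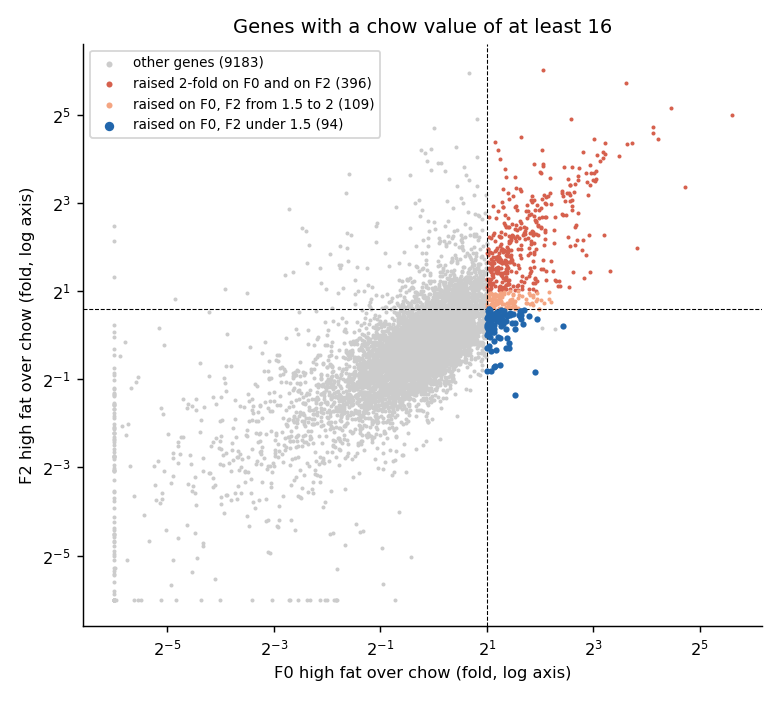
Fold over chow on the F0 array (x) against fold over chow on the F2 array (y), both on log axes, for genes with a chow value of at least 16. Dashed lines mark the limits of 2 and 1.5, the 94 members are the blue points at the lower right, and the 2 grey points among them are the genes left out by name. No floor was applied, and values beyond the lower axis limits are drawn at the edge.

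No limit was set on the F1 array, although it is read against the same chow array and shared in the mean that picked the probes. On it 37 of the 94 members exceeded chow by 2-fold or more, where 6.55% of all genes did, and 84 exceeded it by 1.5-fold or more, where 13.4% of all genes did. The first of these counts moved with the scale, to 12 with no background subtraction, 62 with median scaling and 24 relative to adipocyte genes. The median was 1.91-fold, or 0.94 on the log2 scale, against 0.891-fold over all 9782 genes. The members' median F1 over F0 was 0.812, or -0.30 on the log2 scale. Over all genes that median was 1, with log2 quartiles of -0.12 and 0.17. Of the 94 members 83 were lower on F1 than on F0, as were 46.9% of all genes. The members' median F2 over F1 was 0.626, against 1 over all genes. Because F0 was chosen high and F2 low, falls from F0 to F1 and from F1 to F2 are both favoured by the choice. Their sizes and counts, beside those of all genes, therefore do not show where the members came down. F2 was below F1 for 93 members, all but Nprl3, against 52.3% of all genes, and at least 2-fold below it for 18 members, against 1.26% of all genes. Of the 94, 82 had an F1 value between F0 and F2 with F0 the highest, as did 27.6% of all genes, and this order is partly fixed by the choice of F0 above F2. On the log2 scale 85 members lay nearer to F0 than to chow on the F1 array, as did 78.7% of all genes. The SD between probes of the same gene, the only technical gauge here, was 0.33 for log2 F1 over chow and 0.25 for log2 F2 over F1.

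Another 396 genes exceeded chow by 2-fold or more on both F0 and F2. Their median over chow was 2.95-fold on F0, 3.47-fold on F1 and 3.98-fold on F2. They ran upward where the members ran downward, a contrast that the different F2 limits of the groups partly fix. Of these 396, 380 reached 2-fold of chow on F1. Between the groups stood 109 genes at 1.5 to 2-fold of chow on F2, with a median of 2.23-fold on F1.

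**Figure D2:**
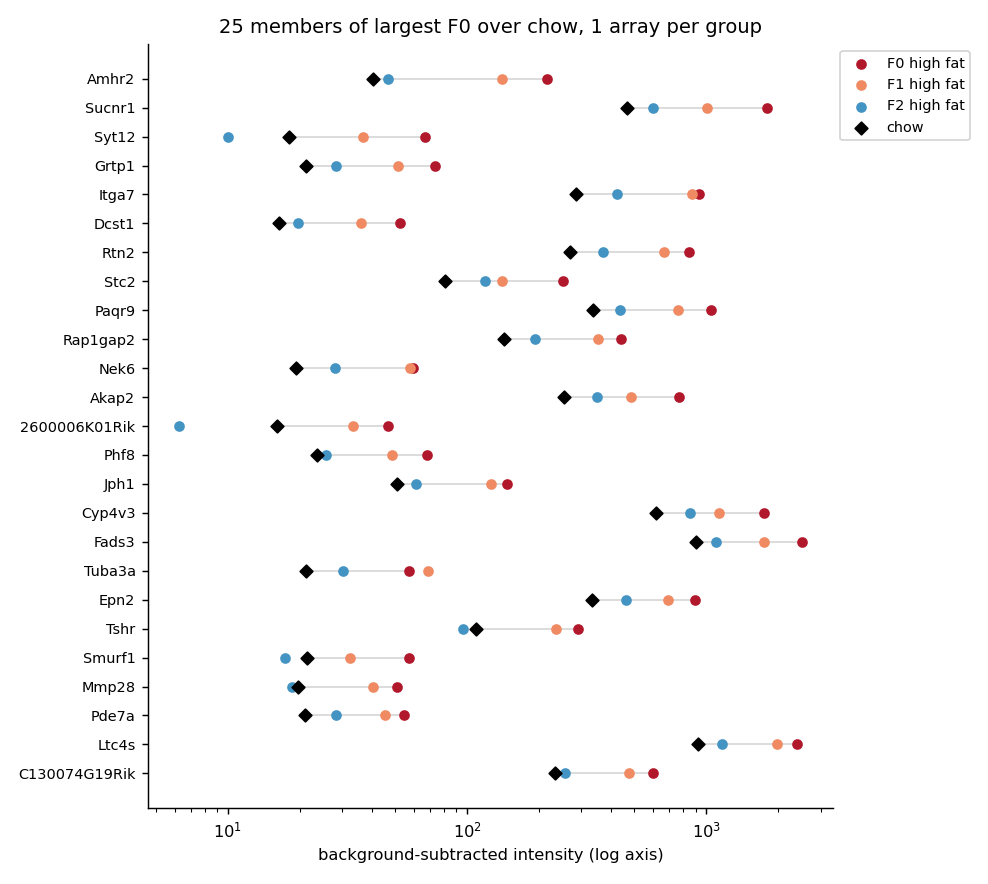
Background-subtracted intensity (x, log axis) on the F0, F1 and F2 high fat arrays and the chow array for the 25 members with the largest F0 over chow, 1 point per array. In 24 of the 25 the F1 point lies between F0 and F2, and the exception is Tuba3a.

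Receptors and secreted signals held 10 members, among them the largest difference of all. Amhr2, the type II receptor of anti-Müllerian hormone, had intensities of 217 on F0, 139 on F1 and 46.6 on F2, against 40.3 on chow. It was 5.38-fold higher on F0 and 3.46-fold on F1, the highest of the 94 on both arrays, and 1.16-fold on F2. Its other probes were too dim on chow to be set beside this, so the value rests on 1 probe.

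Sucnr1, the receptor of succinate that restrains lipolysis in adipocytes, read 1793 on F0, 1007 on F1 and 600.3 on F2, against 465 on chow. This was 3.85-fold higher on F0, 2.16-fold on F1 and 1.29-fold on F2. Tshr, the thyrotropin receptor, which stimulates lipolysis in fat cells, read 289, 234 and 96.2 on F0, F1 and F2, against 108 on chow. A second, dimmer Tshr probe went another way, with 73.4 on F0, 82.3 on F1 and 26.4 on F2, against 82.9 on chow, and the probes shared only the low F2 value. Paqr9, of the progestin and adipoQ receptor family, read 1049, 758 and 435 on F0, F1 and F2, against 336 on chow, and its second probe was 3.33-fold, 2.52-fold and 1.41-fold of chow.

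Among the secreted products, Stc2, stanniocalcin 2, which blocks a protease of IGF-binding proteins, read 251 on F0, 140.1 on F1 and 118 on F2, against 80.4 on chow. Most of its excess was gone on F1, at 1.74-fold. Ccl11, the eosinophil-attracting chemokine eotaxin, read 1299.7, 1075 and 624 on F0, F1 and F2, against 599 on chow, which put F2 within 1.04-fold of chow. Of 21 cytokine and chemokine genes with a chow value of at least 16, 9 were at least 2-fold higher on F0, 7 on F1 and 8 on F2. As far below chow were 4, 3 and 2 of them, and Ccl11 was the 1 member. Over all genes 6.14%, 6.55% and 8.27% were as far above chow, and 12.4%, 11.4% and 12.6% as far below. Ccl9, a chemokine of myeloid cells, for comparison read 5370 on F0, 5288 on F1 and 6143 on F2, against 1444 on chow. Nkd1, an intracellular inhibitor of Wnt signalling, was at 114 on F2 and 114 on chow, against 229 on F0. Angptl1, an angiopoietin-like factor, was 2.02-fold higher on F0 and 1.32-fold on F1, with 42.9 on F2 against 52.4 on chow. Hbegf, a ligand of the EGF receptor, read 43.5 on F0 and 38.9 on F1 and was not detected on F2, against 20.6 on chow.

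Lipid and fatty acid handling held 10 members. Aqp7, the channel through which adipocytes release glycerol, read 1180.0 on F0, 1016 on F1 and 565 on F2, against 489 on chow. It was 2.41-fold higher on F0, 2.08-fold on F1 and 1.15-fold on F2, and its second probe gave 2.27-fold, 1.92-fold and 1.17-fold. A dimmer Aqp7 probe gave 6.83-fold, 3.18-fold and 1.84-fold, outside the F2 limit. Fads3, a member of the fatty acid desaturase family, read 2510.1, 1733 and 1095 on F0, F1 and F2, against 906 on chow. Cyp4v3, a fatty acid hydroxylase, read 1737, 1129 and 851 on the same arrays, against 614 on chow. Ltc4s, which makes leukotriene C4, read 2379, 1979 and 1158, against 926 on chow. All 3 stepped down on each later generation.

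Slc27a1, the fatty acid transport protein FATP1 that responds to insulin, had the lowest F1 over chow of all 94 members. It read 938 on F0 but 322 on F1 and 259 on F2, against 429 on chow. It was thus 2.19-fold higher on F0 and below chow after that, at 0.752-fold on F1 and 0.604-fold on F2, and was the 1 member below chow on F1. None of the other 3 measured genes of its family shared this course. Slc27a2 went the opposite way, with 44.8 on F1 and 111 on F2, against 20.1 on chow, and a value below 0 on F0. Slc27a3 read 24.6, 27.1 and 36.9 on F0, F1 and F2, against 62.9 on chow, and Slc27a4 read 35.7, 38.9 and 43.3, against 52.9 on chow. Acadl, a mitochondrial acyl-CoA dehydrogenase, also dropped early, to 276 on F1 and 275 on F2, with 416 on F0, against 205 on chow. Its second probe was only 1.43-fold higher on F0 and 1.07-fold on F1.

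Of the 10 lipid members Acbd4 was the brightest on F0 and Cd36 the dimmest. Acbd4, an acyl-CoA binding protein, read 3135 on F0, 2537 on F1 and 1657 on F2, against 1501 on chow. Sc5d, an enzyme of late cholesterol synthesis, read 132 on both F0 and F1 and 76.0 on F2, against 62.6 on chow, while of 12 cholesterol synthesis genes 1 was at least 2-fold higher on F0. Cyp4b1 was 2.13-fold higher on F0 and 1.88-fold on F1. The Cd36 probe with the most signal read 43.7 on F0, 37.4 on F1 and 25.6 on F2, against 19.9 on chow, close to the detection limit, so little can be said of this fatty acid transporter. Of 14 genes of fatty acid uptake and binding, Cd36 and Slc27a1 were the 2 at least 2-fold higher on F0, and 0 were on F1 or F2. The mitochondrial oxidation list of 18 genes had 1 gene, Acadl, at least 2-fold higher on F0 and 1 lower, and 4 lower on F2. For these 3 lists the shares over all genes were 6.14% higher on F0, 6.55% on F1 and 8.27% on F2. As far below chow were 12.4% on F0 and 12.6% on F2.

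Matrix and adhesion held 9 members, of which 5 were at least 2-fold higher on F1. Col4a2, a chain of basement membrane collagen, read 6426 on F0, 6222 on F1 and 3791 on F2, against 2587 on chow. Sparc, a matrix protein that binds that collagen, read 13634, 12617 and 8113 on F0, F1 and F2, against 6509 on chow, and its second probe was 3.11-fold, 3.17-fold and 1.76-fold of chow. By that second probe Sparc would not be a member. Itga7, an integrin chain that binds laminin, read 928, 871 and 421 on F0, F1 and F2, against 285 on chow. F1 over F0 was 0.968 for Col4a2, 0.925 for Sparc and 0.938 for Itga7. Their lower values on F2 follow from the limits that chose them.

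A list of 16 measured basement membrane genes, drawn up after the values were seen, put this in context. With its 2 members included, its median over chow was 1.41-fold on F0, 1.28-fold on F1 and 0.759-fold on F2. On F0 these members, Col4a2 and Sparc, were the 2 genes past 2-fold upward, as the limit fixes for them, with 3 past it downward. Col4a1, the partner chain of Col4a2, fell just short of the limit on F0, with 7735 on F0, 7547 on F1 and 5312 on F2, against 3956 on chow. Hspg2, perlecan, read 3707, 3463 and 2030 on F0, F1 and F2, against 2212 on chow, and Nid1, nidogen, was 1.49-fold of chow on F0 and 0.766-fold on F2. Lama2, a laminin chain, went upward instead, at 1.77-fold, 2.20-fold and 3.04-fold. Col4a5, a type IV collagen chain of other basement membranes, was low on all 3 high fat arrays, at 0.150-fold, 0.243-fold and 0.263-fold of chow on F0, F1 and F2. Over 42 genes of the wider extracellular matrix 4 stood 2-fold or more above chow on F0 and 11 as far below. Over all genes the shares on F0 were 6.14% above and 12.4% below.

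**Figure D3:**
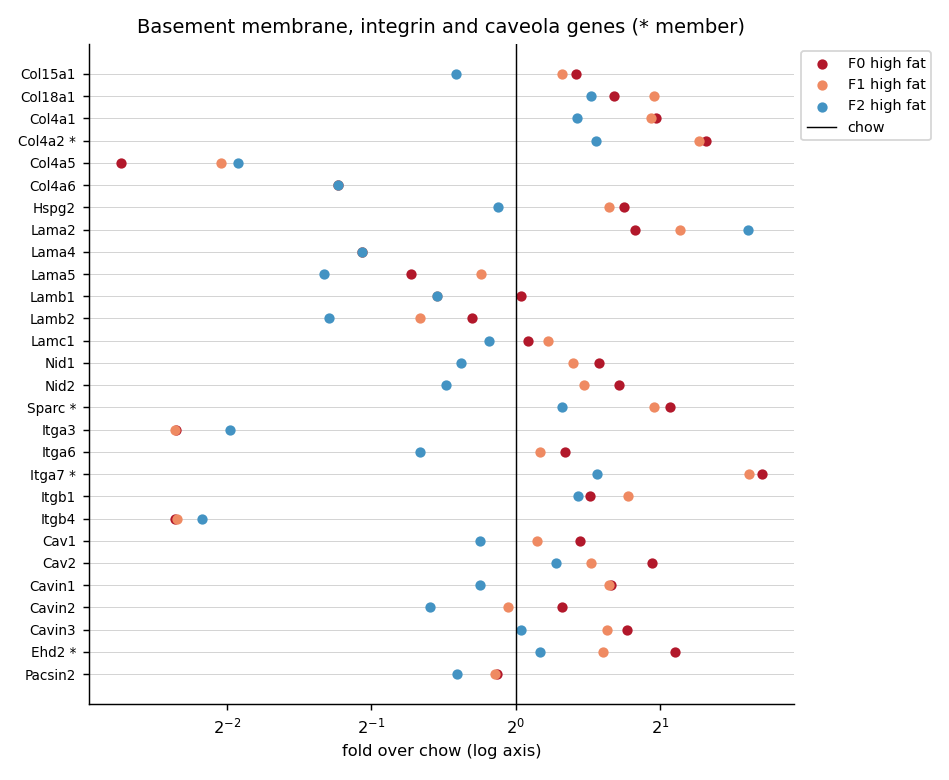
Fold over chow (log axis, values under 16 set to 16) on the F0, F1 and F2 arrays for genes of the basement membrane, laminin-binding integrins and caveolae. Asterisks mark members. Col4a2, Sparc, Itga7 and Ehd2 lie at 2-fold or more on F0 and between 1.12 and 1.48-fold on F2, and the caveola genes Cav1 and Cavin1 step down to 0.840-fold.

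Further adhesion members were dimmer. Adam23, a membrane protein of the ADAM family, read 671 on F0, 827 on F1 and 419.5 on F2, against 292 on chow, and was among the 5 members highest on F1, at 2.83-fold. Ddr1, a collagen receptor kinase, read 228, 159 and 120.1 on F0, F1 and F2, against 107 on chow. Mmp28, a secreted metalloproteinase, read 51.0, 40.3 and 18.6 on F0, F1 and F2, against 19.6 on chow, but a second probe at 16.4 on F0, against 22.9 on chow, did not share the F0 excess. Mme, neprilysin, a peptidase of the cell surface, was 2.38-fold higher on F0 by its brightest probe, and its second probe, at 14.4 on F0 against 20.0 on chow, did not show it either.

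Cytoskeleton and membrane shape held 10 members, and 6 of them were at least 2-fold higher on F1. Sncg, gamma-synuclein, an abundant adipocyte protein, was the brightest, with 13296 on F0, 11396 on F1 and 8458 on F2, against 6070.4 on chow, and its second probe gave 2.23-fold, 1.98-fold and 1.17-fold. Rtn2, a reticulon that bends the endoplasmic reticulum, read 843, 663 and 371 on F0, F1 and F2, against 269 on chow. Sptbn1, a spectrin of the membrane skeleton, read 1110.3, 981 and 625, against 461 on chow. Epn2, an endocytic adaptor, read 898, 691 and 459, against 333 on chow, and its second probe gave 2.90-fold on F0 and 2.32-fold on F1. Jph1, which ties the endoplasmic reticulum to the plasma membrane, read 147, 125 and 61.4, against 50.9 on chow. Ehd2, the ATPase at the neck of caveolae, read 485, 343 and 255, against 226 on chow.

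The list of 7 caveola genes, Ehd2 among them, had a median of 1.58-fold of chow on F0, 1.44-fold on F1 and 0.840-fold on F2. Cav2, a caveolin, read 399 on F0, 298 on F1 and 252 on F2, against 208 on chow, just short of 2-fold on F0. Cav1, the main caveolin of adipocytes, read 10845 on F0, 8813 on F1 and 6705 on F2, against 7979 on chow. Ehd2 was the 1 gene of this list at least 2-fold higher on F0, as its membership fixes, and 0 were on F1 or F2. Over all genes the shares were 6.14%, 6.55% and 8.27% on F0, F1 and F2.

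Amino acid and creatine metabolism held 5 members. Gamt, which completes creatine synthesis, read 812 on F0, 694 on F1 and 444 on F2, against 321 on chow. Castor1, the arginine sensor upstream of the growth kinase complex mTORC1, read 416, 322 and 213 on F0, F1 and F2, against 175 on chow. Nprl3, a subunit of the GATOR1 complex, which lies downstream of Castor1, read 108 on F0 but 47.7 on F1 and 57.0 on F2, against 44.3 on chow. Of the 94 it had the lowest F1 over chow after Slc27a1, at 1.08-fold. The pathway as a whole did not share this. Over 11 measured genes of amino acid input to mTORC1, these 2 members included, the medians were 1.09-fold, 0.986-fold and 1.05-fold of chow on F0, F1 and F2. Castor1 and Nprl3 were the 2 at least 2-fold higher on F0, as their membership fixes, where 6.14% of all genes were. Trib3, a pseudokinase induced by amino acid and endoplasmic reticulum stress, read 248 and 258 on F0 and F1 and 128 on F2, against 119 on chow. A second, dim Trib3 probe gave 1.60-fold, 1.85-fold and 0.856-fold, short of the F0 limit. Auh, an enzyme of leucine breakdown, was 2.03-fold higher on F0 and 1.20-fold on F2.

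Histones were the 1 family with several members and near-identical sequences. H2ac18 read 5864 on F0, 5325 on F1 and 3369.5 on F2, against 2492 on chow. H4c8 read 2509, 2110.3 and 1550.0, against 1101 on chow, H4c11 read 888, 776 and 523, against 398 on chow, and H4c12 read 366, 297 and 209, against 154 on chow. Probes of such genes may bind transcripts of their copies, so the value of each is uncertain, and second probes of H2ac18 and H4c12 stood at 2.11-fold and 2.53-fold of chow on F2, outside the limits.

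These 4 were a small part of a family that was high on all high fat arrays. Of 37 core histone genes with a chow value of at least 16, 27 were at least 2-fold higher on F0, 26 on F1 and 17 on F2. Over all genes the shares were 6.14%, 6.55% and 8.27%. On each of the 3 arrays 0 histone genes were 2-fold lower, against 12.4%, 11.4% and 12.6% of all genes. The caution on copies holds for the whole family, so its genes may share signal and are not separate counts. The classes ran in different directions after F0. H2A genes had a median over chow of 3.79-fold on F0 and 4.64-fold on F1, and 10 of 12 were higher on F2 than on F0. H2ac11 reached 17.7-fold on F2, with 374 on F2, 243 on F1 and 191 on F0, against 21.1 on chow. H3 genes had medians of 1.57, 1.82 and 1.85-fold, and all 7 were higher on F2 than on F0. H2B and H4 genes mostly came down, with 8 of 9 and 6 of 9 lower on F2 than on F0, and medians of 1.84-fold and 1.62-fold of chow on F2, against 2.37-fold for each on F0. The H4 members stood at the lower end of their class on F2, a place that the F2 limit of 1.5-fold sets for them. On the same array 2 H4 genes, H4c6 and H4c17, were over 3-fold of chow.

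**Figure D4:**
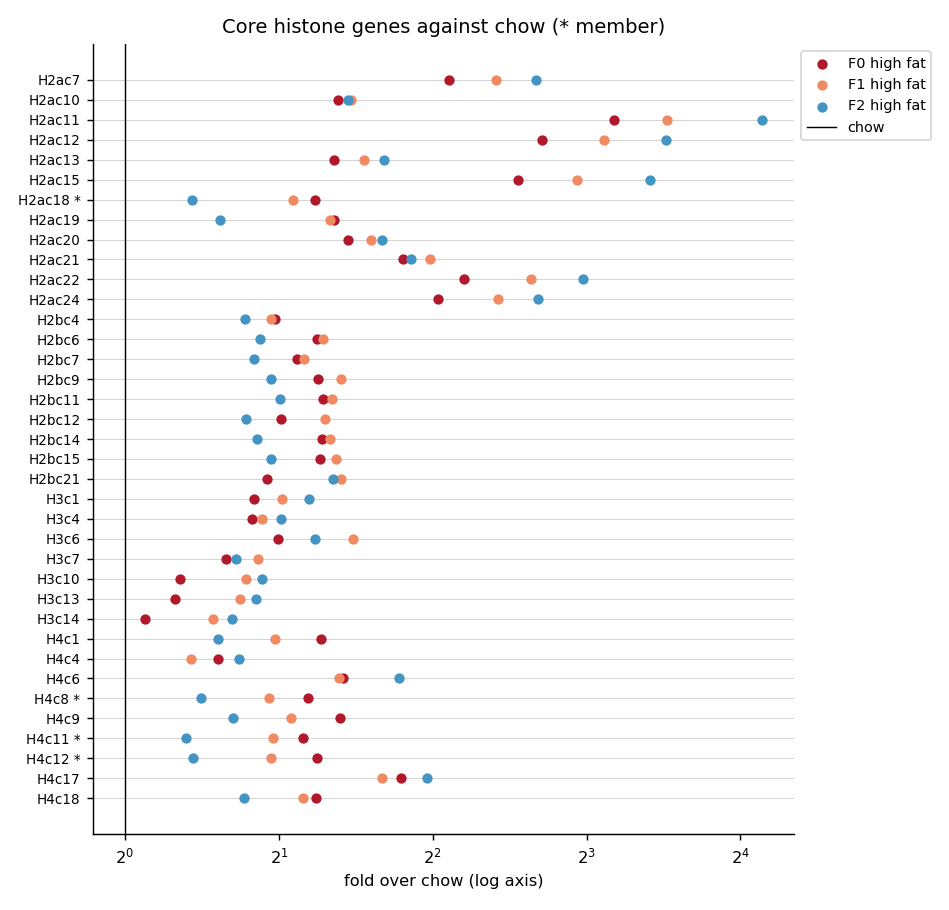
Fold over chow (log axis) on the F0, F1 and F2 arrays for 37 core histone genes, by class, with members marked by an asterisk. All points lie right of the chow line, the H2A genes with the exception of H2ac18 and H2ac19 lie further right on F2 than on F0, and H2B genes other than H2bc21 lie further left.

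Transcription and chromatin held 3 members. Cited2, a transcriptional co-regulator, read 1311 on F0, 875 on F1 and 741 on F2, against 654 on chow. Zfp423, a zinc finger factor of preadipocyte commitment, read 137, 102 and 43.7 on F0, F1 and F2, against 53.3 on chow, and its second probe gave 2.62-fold, 1.65-fold and 1.05-fold. Phf8, a histone demethylase, read 67.8, 48.3 and 25.7, against 23.5 on chow. Of 25 genes on the list of adipose expansion and adipogenesis, Zfp423 was the 1 member. On F0 2 of them stood 2-fold or more above chow and 4 below, where 6.14% and 12.4% of all genes did.

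The other 43 members fitted none of these groups. Rap1gap2, which switches off the GTPase Rap1, read 440.5 on F0, 353 on F1 and 192 on F2, against 143 on chow. Grtp1, whose transcript responds to growth hormone, read 73.4, 51.4 and 28.3, against 21.1 on chow. Akap2, a scaffold of protein kinase A, read 765, 484 and 349, against 253 on chow, and Pakap, whose locus includes that of Akap2, read 198, 165 and 80.1, against 83.4 on chow, so that their values may share transcripts. Tmem205 and Dusp3, a dual specificity phosphatase, were among the brighter members, at 5209 and 4381 on F0, against 2502 and 2144 on chow. Mgmt, which removes alkyl groups from DNA, read 969, 822 and 527, against 425 on chow.

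Members held as high on F1 as on F0 included Nek6, a mitotic kinase, with 59.3 on F0, 57.6 on F1 and 27.9 on F2, against 19.3 on chow, and Tuba3a, a tubulin, with 57.3, 68.4 and 30.2, against 21.3 on chow. These are dim probes, and 29 of the 94 members had a chow value under 50. At the other end, Smurf1, a ubiquitin ligase, read 57.0, 32.3 and 17.3 on F0, F1 and F2, against 21.4 on chow. Syt12, of the synaptotagmin family, read 66.7 on F0 and 36.7 on F1, against 17.9 on chow, and 2600006K01Rik read 46.7 and 33.4, against 16.1 on chow; neither was detected on F2. Together with Hbegf they were the 3 members not detected there. Gstm7, a glutathione transferase, read 45.2, 33.6 and 12.7 on F0, F1 and F2, against 22.5 on chow. Further dim members were Dcst1, with 52.4, 36.0 and 19.5, against 16.3 on chow, and Pde7a, a cAMP phosphodiesterase, with 54.3, 45.3 and 28.3, against 20.9 on chow. The unnamed transcript C130074G19Rik read 596, 475 and 257, against 232 on chow.

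General adipocyte transcripts also stepped down after F0. Of 19 adipocyte identity genes that are not members, all 19 were lower on F2 than on F0, as were 48.9% of the 9782 genes, and 17 were lower on F1 than on F0. Their F2 over F0 had a median of 0.529 and ranged from 0.208 to 0.805. The members' median of 0.516 is set largely by the limits on F0 and F2 and is no evidence that the groups run alike. Adipoq, which encodes adiponectin, read 13260 on F0, 11322 on F1 and 8997 on F2, against 12425 on chow. Plin4, a lipid droplet coat protein, read 18930 on F0, 15518 on F1 and 9758 on F2, against 12884 on chow. Lep, leptin, read 22768, 23056 and 15651 on F0, F1 and F2, against 3867 on chow, and so stayed high where the members did not. Against chow the 19 genes had medians of 0.35, 0.11 and -0.40 on the log2 scale on F0, F1 and F2.

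Read against the median of those 19 genes on each array, a scaling added after the values were seen, the members had medians over chow of 0.82, 0.83 and 0.71 on the log2 scale on F0, F1 and F2. On that scale 94 members exceeded chow by 1.5-fold or more on F0, as the limit on F0 fixes, where 6.78% of all genes did. The same count was 76 on F1, where 10.8% of all genes passed, and 59 on F2, where 27.1% of all genes passed, since this scaling raises every gene on F2. The limits were met by 8 genes on that scale, all of them members. The return toward chow on F2 thus depended on the scale: it was seen against all transcripts of the tissue and was much smaller against adipocyte transcripts.

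**Figure D5:**
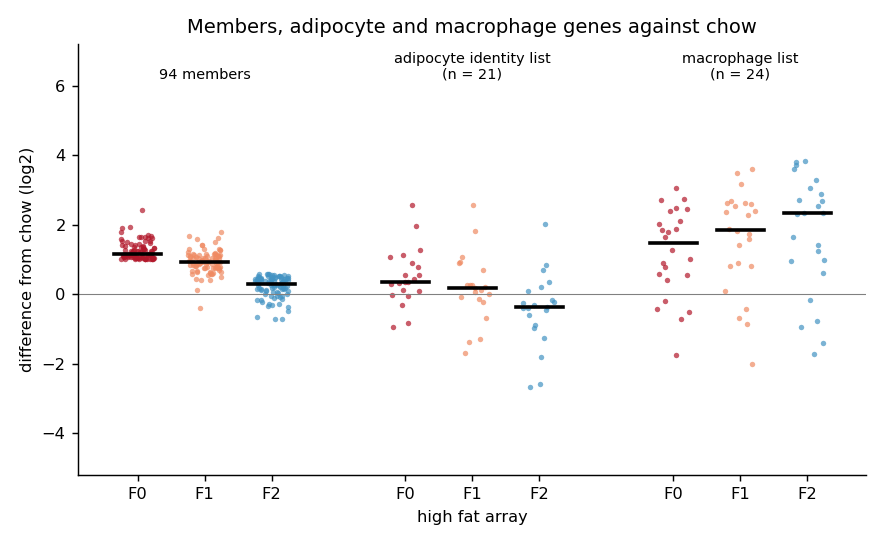
Difference from chow (log2) on the F0, F1 and F2 arrays for the 94 members, 21 adipocyte identity genes (2 of them members) and 24 macrophage genes. Each point is a gene and bars are medians. The members' medians are 1.17, 0.94 and 0.31, and those of the macrophage genes go upward from 1.46 on F0 to 1.85 on F1 and 2.32 on F2.

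Marker sums of other cells moved in several directions over the generations. The summed intensity of the 9 of 10 macrophage markers that were detected was 26557 on F0, 33467 on F1 and 41317 on F2, against 4592 on chow, and 21 of 24 genes on the macrophage list were higher on F2 than on F0. Summed B cell markers (3 of 6 genes detected) read 236, 249 and 4375 on F0, F1 and F2, against 199 on chow, T cell markers (6 of 6) 349, 329 and 3041, against 264, and hepatocyte markers (4 of 6) 164, 3595 and 8900, against 69.5. The chow array had more mesothelial signal, with 203, 501 and 740 on F0, F1 and F2, against 4853 on chow over 6 genes, and more smooth muscle signal, with 13814, 10161 and 12827, against 41105 over 6 genes. Endothelial markers (6 of 6) summed to 2551 on F0, 2364 on F1 and 1718 on F2, against 2802 on chow. Cldn5 was the brightest of them, at 1318 on F0 and 684 on F2, and Pecam1 alone was higher on F2, at 293 against 263 on F0. Skeletal muscle markers (6 of 6) summed to 3389, 2172 and 1968, against 2383 on chow. That sum was nearly all Acta1, which read 3377 on F0 and 1928 on F2, against 1237 on chow. Of the 6 genes, 4 were at least 2-fold below chow on each high fat array. Those 4, Atp2a1, Ckm, Mylpf and Tnnt3, read under 16 on every high fat array and were set to 16, so the size of their difference is uncertain. For that reason the median over the 6 was -3.06 on the log2 scale on F0, F1 and F2 alike. The part of these cell types in the members' values was not tested. The number of probes detected ranged from 17095 on F1 to 18532 on F2 of 45281 on each array.

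The limits cut through a continuous range of values. Just inside the F0 limit stood Sh3pxd2a, Cited2 and Nkd1, with intensities of 583, 1311 and 229 on F0, against 291, 654 and 114 on chow, and just outside it Dusp10, Reep5 and Vkorc1l1, at 1.99-fold each. Just inside the F2 limit were Ppp4r1l-ps, Pi4k2b and Mzt1, with 62.1, 176 and 69.2 on F2, against 41.5, 118 and 46.7 on chow. Just outside it were Fzd4, Chst15 and Fgf13, with 40.8, 340.4 and 791 on F2, against 27.2, 226 and 523 on chow. Col4a1 and Cav2 fell on the far side of such a line from Col4a2 and Ehd2, on similar values.

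Second probes give a partial check of single genes on the same arrays. Another probe with a chow value of at least 16 and detection on F0 existed for 33 of the 94 members. By the brightest such probe 29 of the 33 were higher on F0 than on chow, 16 of them at least 2-fold, and 12 met all limits. Tshr, Ric3, Mmp28 and Mme were the 4 that were not higher on F0 by that probe.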

How the data were processed

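Total RNA of white adipose tissue was made into biotinylated cRNA and read on 4 Illumina mouse arrays, each for a single group. The deposited files give an intensity and a detection p-value per probe, and GenomeStudio 2010.2 is the software named, per the submitters' processing notes. The deposited value table holds an intensity after background subtraction, with a mean of 216.4 on each array and 25.8 to 27.8% of values below 0. A step that equalises means is not given in the sources used here.

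A single symbol was available for 34885 of 45281 probes, 18 had several and 10378 had none, and 34807 were matched by gene ID to RefSeq. Each gene took its brightest probe by the mean of 4 arrays. For ratios, values under 16 were raised to 16. The alternative background correction was nec of limma 3.58.1 in R 4.3.3, offset 16, with quantile normalization. The code that applies the limits was tested on simulated data for coding errors, which says nothing about chance. Medians and counts came from Python 3.11.15 and pandas 2.3.3.

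Named genes were the 25 members of largest F0 over chow, the 5 highest and 5 lowest on F1, the 3 lowest on F2, up to 4 members per gene list, and genes beside the limits. The rule allowed 6 genes outside the 94, and the text names more. These, the role groups and families, and further members and probes named from them were chosen after their values were seen. The members and lists were chosen with earlier results of these data known. The alternatives tried changed the background correction, scaling, probe summary and limits.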

Additional observations from a re-analysis of the deposited data

Results flagged for a closer look

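Of the members higher than chow on F0, 6 lay below chow on F2 by more than the SD between probes of a gene, and for 1 of these F1 did as well. That SD was 0.35 on the log2 scale for F2 over chow. Over all 9782 genes the lower quartile of F2 over chow was -0.61 on the same scale. Values this low were thus common on the array and not particular to the members. The difference between generations was not tested. On the log2 scale F2 over chow was -0.73 for Slc27a1, -0.71 for Ric3, -0.67 for Myom3, -0.49 for Gstm7, -0.37 for Hbegf and -0.36 for Mfsd13b, with Gstm7 and Hbegf read at 16 on F2. Slc27a1 was also below chow on F1, by -0.41. A second Ric3 probe was not higher on F0 than on chow.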

How the results depend on the processing

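The number of genes that met the limits moved most with the scale. It was 94 in the value table, 46 with no background subtraction, 157 with quantile normalization, 176 with median scaling, and 101 with nec and quantile normalization, where 82 of the 94 qualified. Under all 4 of these scalings 26 members qualified. It became 12 with F0 over chow of 3 or more, 49 with a tighter F2 limit, and 8 relative to adipocyte identity genes, a scaling chosen after seeing the data. The count of members at least 2-fold higher on F1, 37 at first, was 12 with no background subtraction, 62 with median scaling, 24 with a chow value of at least 50 (of 65 members) and 24 relative to adipocyte genes. Relative to these, medians on the log2 scale became 0.82 for F0 over chow, 0.71 for F2 over chow, -0.062 for F1 over F0 and -0.16 for F2 over F1. The other 68 of 82 values, among them those without histone genes and the Akap2 and Pakap pair and those with the probe picked without F1 (both chosen after seeing the data), kept their sign and moved by less than 1.5 times (counts) or the SD between probes (medians). Low intensities limit the 29 members with a chow value under 50. No paired analysis was possible because each group is 1 array.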

Other observations

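Members were uneven over the chromosomes. Chromosome 11 held 17 of the 94 (18.1%), against 8.55% of the 9782 genes with a chow value of at least 16. They were Stc2, Rap1gap2, Epn2, Mmp28, Ltc4s, Trim16, Nprl3, Sptbn1, Castor1, Cdc42ep4, Ccl11, Sparc, Slc38a10, Acbd4, Rtn4rl1, Dusp3 and Unc119. None of these 17 adjoined another among the measured genes. The pairs of members that were next to each other were H4c11 and H4c12 on chromosome 13 and Cdr2 and Mfsd13b on chromosome 7. This was noticed in the data and not tested.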
